A study of Mus musculus with 48 samples.

Results

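The 10 genes described here are the core feedback and target genes of canonical Wnt signalling: *Axin2*, *Lgr5*, *Notum*, *Nkd1*, *Rnf43*, *Znrf3*, *Sp5*, *Tcf7*, *Lef1* and *Ctnnb1*, the gene of β-catenin itself. They were chosen by name, and they were looked up by gene symbol among the 20622 genes of the cytoplasmic RNA tables. Each gene was read as ribosome-protected fragments (RPFs, mRNA stretches that a bound ribosome keeps from nuclease digestion) over its coding sequence, as cytoplasmic RNA, and as translation efficiency (TE, the RPF signal relative to the RNA of the same liver). Livers came from 24 male mice aged 2 to 4 months and weighing at least 20 g, in 4 genotypes with 3 mice each at day 4 and 3 at day 10.

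The genotypes were wild-type (WT), Ctnnb1ex3/+ (B, 1 allele of *Ctnnb1* that loses exon 3), R26-LSL-MYC (M, a MYC transgene at the *Rosa26* locus behind a stop cassette) and Ctnnb1ex3/+; R26-LSL-MYC (BM). All mice, WT included, received AAV8.TBG.Cre, a virus that expresses Cre from the hepatocyte promoter TBG, so recombination was aimed at hepatocytes, and the other cells of the liver were part of the same lysate. The day is the time since the virus was given. RPFs and RNA with the same number came from the same mouse and lysate. Mice of day 4 and day 10 were given virus at different times and were killed together.

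When no Wnt ligand is present, β-catenin is held by a cytoplasmic complex built on AXIN and APC, phosphorylated at residues encoded by exon 3, ubiquitinated and degraded. Wnt ligands stop that complex, β-catenin enters the nucleus with TCF/LEF factors, and several of the first genes to be induced are brakes on the same pathway. In liver this signal is strongest around the central vein, where *Axin2*, *Lgr5* and *Notum* mark pericentral hepatocytes. Removing exon 3 leaves β-catenin without the residues that lead to its degradation.

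Both sequences printed here carry that background. The first is exon 3 of *Ctnnb1*, which the mutant allele lacks. It lies on the plus strand at chr9:120779588-120779815 of GRCm39, is wholly coding, and its 228 bases are 9.72% of the 2346 coding bases of the gene. The 18 bases in capitals are the codons of the phosphorylated motif through which the ubiquitin ligase binds. The second is the 250 bases before the start of *Sp5*, on the plus strand at chr2:70474673-70474922 of GRCm38.p6 (RefSeq). Its capitals mark CTTTGAT, the core motif of TCF/LEF factors, which starts 104 bases before the start of the gene.
Ctnnb1 exon 3: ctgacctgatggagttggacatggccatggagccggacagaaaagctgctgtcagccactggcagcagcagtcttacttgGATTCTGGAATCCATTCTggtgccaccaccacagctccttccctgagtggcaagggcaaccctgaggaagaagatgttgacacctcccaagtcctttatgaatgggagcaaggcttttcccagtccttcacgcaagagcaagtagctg
Sp5 promoter: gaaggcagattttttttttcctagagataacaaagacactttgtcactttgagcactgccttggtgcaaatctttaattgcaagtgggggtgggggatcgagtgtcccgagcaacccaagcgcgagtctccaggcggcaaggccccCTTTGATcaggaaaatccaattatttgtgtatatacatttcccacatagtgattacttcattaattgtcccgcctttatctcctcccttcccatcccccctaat
CTTTGAT was searched on both strands. It was present in 1225 of 32851 mouse promoters in the RefSeq table (3.73%) and in 1 of the 13 promoters listed for 7 of the 10 genes, that of *Sp5*. Promoters of *Lgr5*, *Notum* and *Znrf3* were not matched. A match of letters is a description and not a binding site.

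Libraries held 9742197 to 14380713 RPF counts and 3254141 to 6540116 RNA counts. Levels are given as CPM, counts relative to the library total scaled by TMM, a factor that removes differences in library composition. A count of 3, the floor used for a gene hardly seen, was worth 0.174 to 0.364 RPF CPM and 0.447 to 0.779 RNA CPM. A change was called when edgeR's quasi-likelihood test gave an adjusted p under 0.1, adjusted by Benjamini-Hochberg over all genes tested, and is given as log2 change ± standard error with n = 3 mice a group. The 8 hepatocyte markers (*Alb*, *Ttr*, *Apoa1* and others) had counts in every group, and their summed RPF level at day 4 was 83743 to 94414 CPM in WT, 66388 to 81372 CPM in B, 52221 to 66279.8 CPM in M and 37241 to 45291 CPM in BM. At day 10 it was 79119.5 to 101120.0 CPM in WT, 43357 to 46204 CPM in B, 45621 to 50751 CPM in M and 32356 to 37780.1 CPM in BM. All mutant groups thus lay below WT in this sum at both days, which need not hold for each marker. The part of this fall in the results below was not tested. In whole liver, fewer cells of a type and less RNA per cell cannot be told apart. BM mouse 1 of day 10 stood apart from the other 2 BM mice of that day in most of these genes, and the RPF changes of the 9 tested genes in BM at day 10 are given with and without it.

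At day 4, 8 of the 10 genes had more RPFs in B than in WT, namely *Axin2*, *Lgr5*, *Notum*, *Nkd1*, *Rnf43*, *Znrf3*, *Sp5* and *Tcf7*. The same 8 rose in BM, and in each case every mutant mouse was above every WT mouse. The share of all genes separated in this way was not counted. *Ctnnb1* was the one gene tested that was not called, and *Lef1* had too few counts to be tested. Against 8 of 9 genes tested here, 6.21% of all genes tested were called higher in B and 26.2% in BM. In cytoplasmic RNA the same 8 genes were called higher in both genotypes, where the background was 4.41% in B and 21.3% in BM. The median RPF change over the 9 genes was 1.92 in B and 2.25 in BM on the log2 scale, against −0.01 and 0.00 over all genes. The B and BM comparisons share their WT mice and are not independent of each other.

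**Figure D1:**
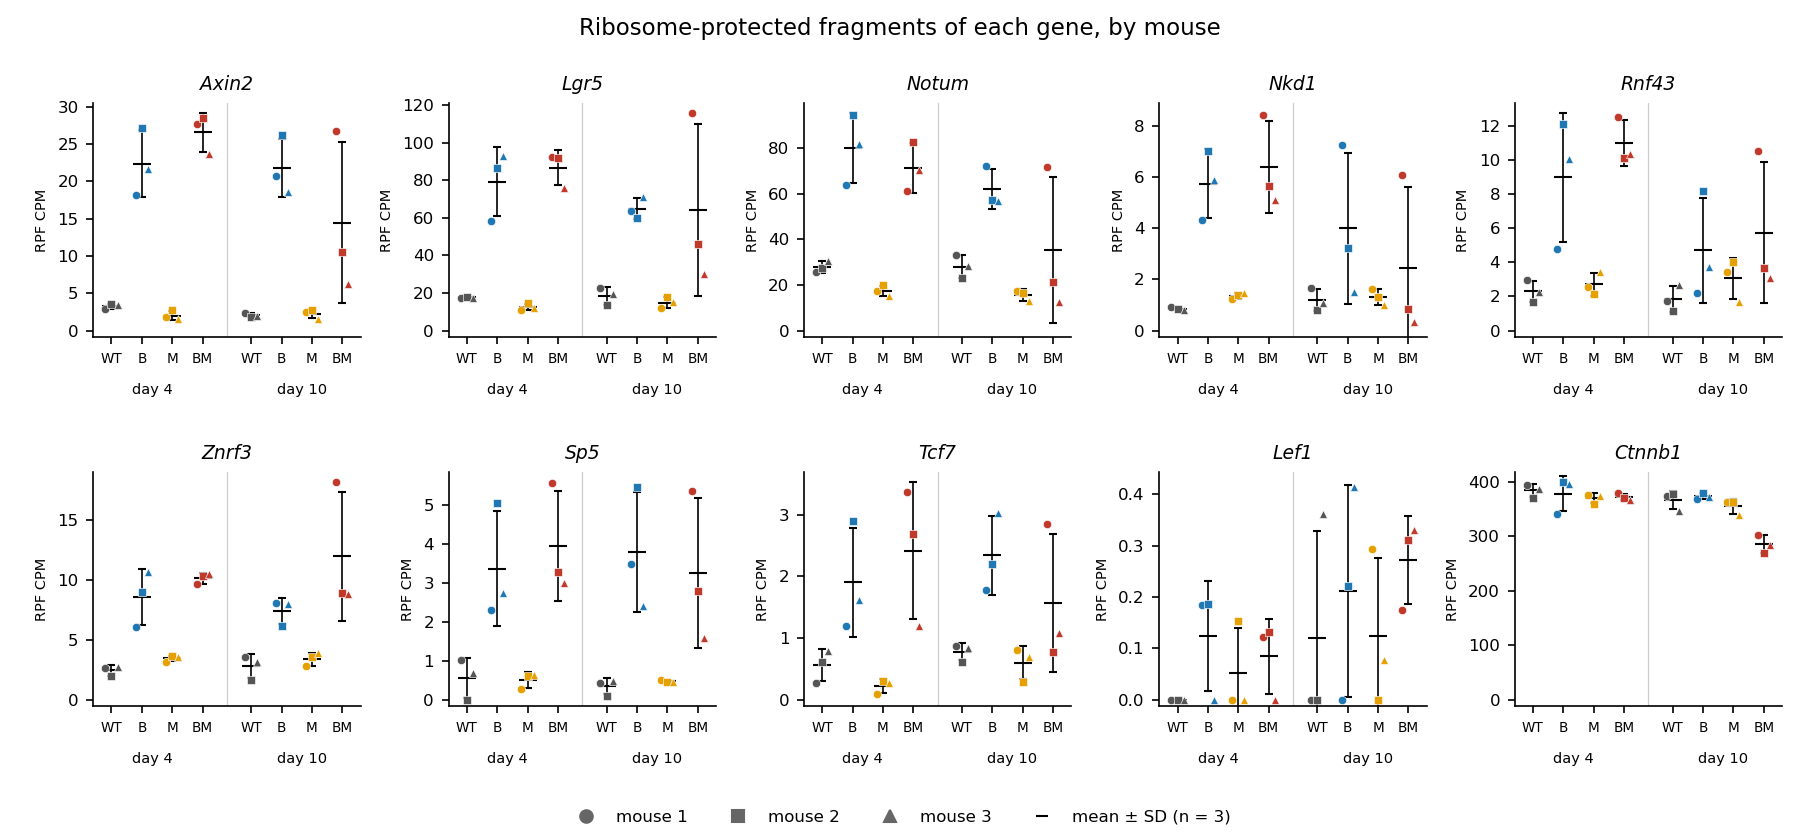
RPF level (CPM, y axes, 1 panel for each of the 10 genes) of each of the 24 mice by genotype and day; points are mice, bars are the mean and SD of 3 mice. The B and BM mice of day 4 lie above the WT mice in 8 panels, *Ctnnb1* is level at day 4, and the 3 BM mice of day 10 span 6.20 to 26.7 CPM of *Axin2*.

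*Axin2* encodes the scaffold of the β-catenin degradation complex and is widely used as a readout of the pathway. Its RPF level was 2.85, 3.52 and 3.39 CPM in the 3 WT mice, 18.2, 27.1 and 21.7 CPM in B and 27.6, 28.4 and 23.6 CPM in BM. RNA followed, with 2.67, 3.07 and 3.60 CPM in WT, 15.4, 29.2 and 15.8 CPM in B and 30, 36.3 and 21.9 CPM in BM. The WT range and the mutant ranges did not overlap in either measure. The log2 RPF change was 2.77 ± 0.19 in B (adjusted p = 3.1e-05) and 3.06 ± 0.15 in BM (adjusted p = 1.2e-07), and the RNA change was 2.69 ± 0.31 and 3.24 ± 0.24. These were the largest RPF estimates among the 9 genes tested in both genotypes, although those of *Nkd1* and *Sp5* lay within 1 of their own standard errors of them.

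*Lgr5* and *Notum* act at the membrane and outside the cell. LGR5 binds R-spondins and so strengthens Wnt signalling, whereas NOTUM is a secreted enzyme that removes the lipid from Wnt ligands and silences them. *Lgr5* had 17.6, 18 and 17.5 RPF CPM in WT, 58.3, 86.4 and 92.8 in B and 92.5, 91.7 and 75.9 in BM. *Notum* had 25.7, 27.3 and 30.6 RPF CPM in WT, 63.9, 94.5 and 81.8 in B and 61.1, 83.0 and 70.3 in BM. Both genes were well read in WT, and the lowest mutant mouse had more than the highest WT mouse. The log2 RPF change of *Lgr5* was 2.15 ± 0.16 in B and 2.32 ± 0.10 in BM (adjusted p = 4.3e-05 and 9.6e-08). That of *Notum* was the smallest estimate of the 8 called, at 1.51 ± 0.14 and 1.38 ± 0.13 (adjusted p = 0.00017 and 8.2e-06). Their RNA changes were close to these, at 2.15 ± 0.21 and 2.41 ± 0.18 for *Lgr5* and 1.49 ± 0.20 and 1.46 ± 0.17 for *Notum*.

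*Rnf43* and *Znrf3* encode related membrane ubiquitin ligases that remove Frizzled receptors from the cell surface, and *Nkd1* encodes a cytoplasmic antagonist that binds Dishevelled. *Znrf3* had 2.67, 1.94 and 2.71 RPF CPM in WT, 6.07, 8.95 and 10.6 in B and 9.60, 10.3 and 10.5 in BM. *Rnf43* ranged from 1.70 to 2.94 RPF CPM in WT, 4.78 to 12.1 in B and 10.1 to 12.5 in BM. B mouse 1 had the lowest level of both ligases among the B mice and was still above the WT mice. *Nkd1* had 0.919, 0.85 and 0.791 RPF CPM in WT, 4.32, 6.99 and 5.87 in B and 8.43, 5.63 and 5.09 in BM. The log2 RPF changes were 1.78 ± 0.25 in B and 2.06 ± 0.18 in BM for *Znrf3*, 1.92 ± 0.34 and 2.25 ± 0.20 for *Rnf43*, and 2.71 ± 0.28 and 2.91 ± 0.29 for *Nkd1*. For *Nkd1* the RNA change was smaller, at 1.56 ± 0.25 in B and 1.51 ± 0.23 in BM, from 5.12, 3.51 and 3.36 RNA CPM in WT to 9.53, 11.6 and 14.7 in B, and with all 24 mice in 1 fit the change in B was not called (adjusted p = 0.13). The transcript on which *Nkd1* RPFs were counted held 26.0% of the RNA counts of its 3 isoforms, so the RPF and RNA values of this gene do not cover the same transcripts.

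*Sp5*, *Tcf7* and *Lef1* encode the transcription factors of the set and had the lowest mean RPF levels per kilobase in WT at day 4. *Sp5*, a repressor that competes at Wnt target genes, had 1.01, 0 and 0.678 RPF CPM in WT, 2.3, 5.04 and 2.72 in B and 5.56, 3.28 and 2.98 in BM. This is the gene whose promoter holds the CTTTGAT match shown above. Its log2 RPF change was 2.43 ± 0.55 in B (adjusted p = 0.021) and 2.72 ± 0.51 in BM (adjusted p = 0.0013). *Sp5* RNA rested on 1, 1 and 3 counts in the WT mice, against 12, 48 and 11 in B and 33, 26 and 23 in BM. The RNA ratio to WT was therefore taken from the summed counts, and was 13.1 in B (95% exact interval 5.36 to 41.6) and 12.2 in BM (5.03 to 38.6), intervals that cover counting error only. With *Sp5* at its lower bound the median RNA change of the 9 genes was as before, 1.60 in B and 1.85 in BM.

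*Tcf7* and *Lef1* encode DNA-binding partners of β-catenin and are also T-cell genes. *Tcf7* had 0.276, 0.607 and 0.791 RPF CPM in WT, 1.20, 2.89 and 1.62 in B and 3.36, 2.69 and 1.19 in BM, with log2 changes of 1.77 ± 0.47 (adjusted p = 0.042) and 2.17 ± 0.49 (adjusted p = 0.0041). The call in B was lost without WT mouse 1 (1.40, adjusted p = 0.18) or B mouse 2 (1.36, adjusted p = 0.14), and with all 24 mice in 1 fit (1.79, adjusted p = 0.11). *Tcf7* RNA went from 2.89, 4.17 and 3.12 CPM in WT to 9.33, 11.8 and 10.1 in B and 14.2, 12.3 and 10.5 in BM. The 9 T-cell markers (*Cd3e*, *Lck* and others) were lower in BM, where all but *Cd27* had counts. Their summed RPF level was 3.77, 4.86 and 4.97 CPM in WT, 5.70, 4.76 and 4.17 in B and 1.65, 2.29 and 2.65 in BM. *Lef1* was at the edge of detection in all 24 mice, with 0 to 6 RPF counts and 0 to 5 RNA counts a library. At day 4 it had no RPF count in the 3 WT mice and 2 counts in each of 2 B mice and 2 BM mice, all under the floor of 3, so no difference of *Lef1* was detectable at this depth.

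**Figure D2:**
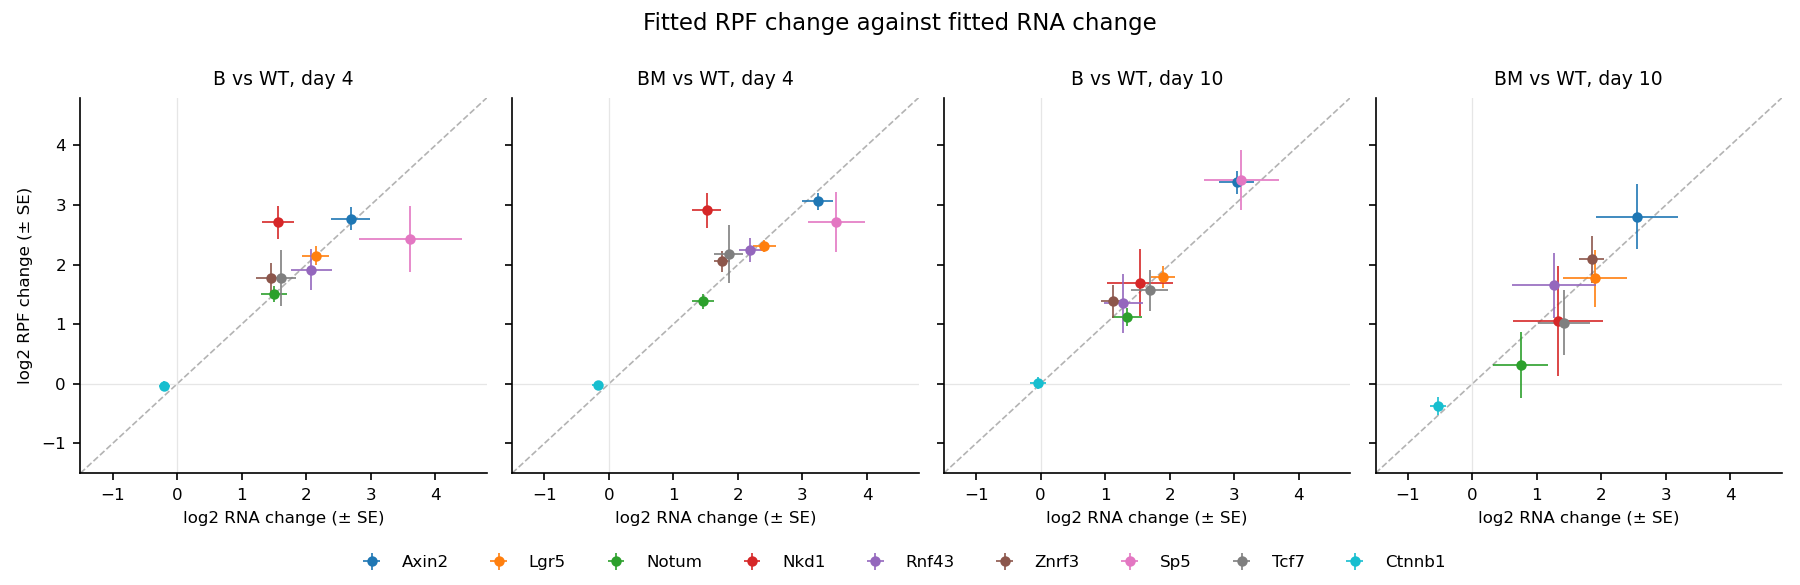
Log2 change against WT in RPFs (y axis) and in cytoplasmic RNA (x axis) of each gene tested, with bars of 1 standard error, in 4 panels for B and BM at days 4 and 10; the dashed line marks equal change. *Axin2* lies near the line in each panel and *Nkd1* lies above it at day 4 in both genotypes, at 2.71 in RPFs and 1.56 in RNA in B.

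*Ctnnb1* RPFs did not follow the target genes. They were 395, 371 and 388 CPM in WT, 341, 399 and 396 in B and 379, 370.3 and 367 in BM at day 4, which overlap. The log2 RPF change was −0.04 ± 0.09 in B (adjusted p = 0.87) and −0.02 ± 0.07 in BM (adjusted p = 0.82). *Ctnnb1* RNA was 270.3, 271 and 269 CPM in WT, 233, 228 and 245 in B and 249.8, 236 and 232 in BM. All mutant mice were thus below all WT mice in RNA CPM, but the changes of −0.20 ± 0.09 and −0.17 ± 0.09 were not called (adjusted p = 0.24 and 0.14). On the TPM scale, which divides by length and is not TMM-scaled, the order differed. It was 91.7 to 102 TPM in WT, 91.1 to 110 in B and 141 to 157 in BM. RPF values are sums over the counted coding sequence, and RNA values are sums over whole transcripts. The deleted exon 3 is 9.72% of the coding bases, on 1 of the 2 alleles, so neither value checks the deletion.

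At day 10 the 8 target genes were again called higher in B in both RPFs and RNA, 8 of 9 genes tested, against 13.1% of all genes in RPFs and 8.14% in RNA. The median changes were 1.57 in RPFs and 1.54 in RNA. *Axin2* had 2.36, 1.84 and 1.92 RPF CPM in WT and 20.7, 26.2 and 18.5 in B, *Lgr5* had 22.9, 13.4 and 19.3 and 63.8, 59.7 and 71.0, and *Notum* had 33.2, 22.9 and 28.2 and 72.2, 57.3 and 56.8. For these 3 genes, and for *Znrf3*, *Sp5* and *Tcf7*, no B mouse reached down to the WT mice. The log2 RPF change was 3.38 ± 0.20 for *Axin2*, 1.79 ± 0.18 for *Lgr5* and 1.12 ± 0.16 for *Notum* (adjusted p = 3.9e-05, 0.00044 and 0.0021). *Nkd1* and *Rnf43* were called with WT and B mice that overlapped. *Nkd1* had 1.66, 0.818 and 1.08 RPF CPM in WT and 7.26, 3.23 and 1.52 in B (log2 change 1.69 ± 0.56, adjusted p = 0.068), and *Rnf43* had 1.75, 1.13 and 2.64 and 2.22, 8.16 and 3.72 (1.35 ± 0.50, adjusted p = 0.094). Both calls were lost without any 1 of the WT mice, and the change was 0.95 for *Nkd1* without B mouse 1 and 0.70 for *Rnf43* without B mouse 2, the mice in which each was highest. The *Rnf43* call was also lost with the replicate number as a block (1.20, adjusted p = 0.14). In RNA the *Nkd1* call was lost without any 1 of the WT mice or without B mouse 1 or 2, at changes of 0.79 without B mouse 1 to 1.95 without WT mouse 1, and the *Rnf43* RNA change was 0.92 and not called when the RPF transcript alone was counted. The T-cell marker sum beside *Tcf7* (log2 change 1.57 ± 0.34) was 4.90, 4.40 and 7.93 RPF CPM in WT and 3.92, 3.75 and 3.79 in B.

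Whether the effect of the B genotype differed between the days was tested directly. By edgeR's quasi-likelihood test 0 of 9 genes were called in RPFs and 0 of 9 in RNA, with 0 at an unadjusted p under 0.05 and 0 by DESeq2 in both, against 17.2% and 9.31% of all genes called. Without B mouse 1 of day 10, the RPF change of *Nkd1* between days was −1.76 and was called (adjusted p = 0.060). The estimates ran from −1.02 ± 0.75 for *Nkd1* to 0.98 ± 0.97 for *Sp5* in RPFs, with 0.61 ± 0.30 for *Axin2* and −0.36 ± 0.26 for *Lgr5*. These standard errors leave room for changes with time in either direction.

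In BM at day 10 the 3 mice differed among themselves. Of the 9 genes tested in RPFs, 5 were higher than in WT (*Axin2*, *Lgr5*, *Rnf43*, *Znrf3* and *Sp5*) and 1, *Ctnnb1*, was lower, against 24.5% of all genes called higher and 22.3% called lower. In RNA 4 of 8 genes were higher (*Axin2*, *Lgr5*, *Znrf3* and *Tcf7*) and *Ctnnb1* was lower, against 22.9% and 22.8%. The groups did not overlap for the 6 genes called in RPFs, and the share of all genes separated in this way was not counted. *Axin2* had 26.7, 10.5 and 6.20 RPF CPM in the 3 BM mice, *Lgr5* had 116, 46.1 and 30, and *Znrf3* had 18.2, 8.85 and 8.84. Mouse 1 was the highest of the 3 in each of these, in *Notum* at 71.9, 21.5 and 12.7 and in *Nkd1* at 6.09, 0.854 and 0.330. Mice 2 and 3 had less *Notum* than each WT mouse of that day, and *Nkd1* of mouse 3 was below each WT mouse.

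**Figure D3:**
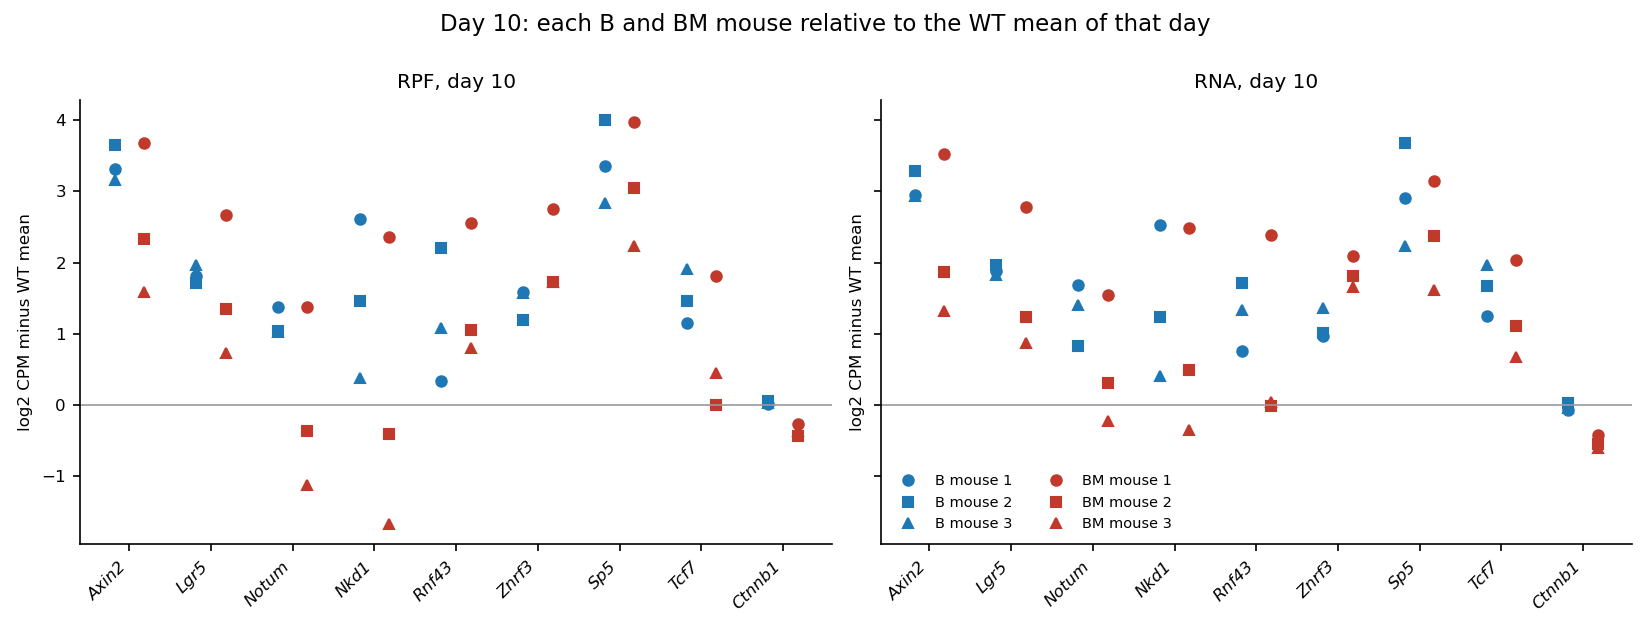
Log2 CPM of each B and BM mouse of day 10 minus the mean of the 3 WT mice (y axis) for each gene (x axis), in RPFs and in RNA. BM mouse 1 lies above BM mice 2 and 3 for the 8 target genes, and the 3 BM mice lie close together for *Ctnnb1*, at 303, 270.0 and 284 RPF CPM.

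The log2 RPF changes in BM at day 10 were 2.81 ± 0.55 for *Axin2*, 1.77 ± 0.48 for *Lgr5*, 1.66 ± 0.55 for *Rnf43*, 2.09 ± 0.40 for *Znrf3* and 3.22 ± 0.64 for *Sp5* (adjusted p = 0.0068, 0.023, 0.047, 0.0062 and 0.0071). *Notum* at 0.32 ± 0.56, *Nkd1* at 1.05 ± 0.92 and *Tcf7* at 1.02 ± 0.55 were not called. The *Rnf43* call was lost without WT mouse 1 (1.61, adjusted p = 0.14) or WT mouse 2 (1.37, adjusted p = 0.15). Without BM mouse 1 the changes of the 5 genes were smaller, at 2.01 ± 0.28, 1.02 ± 0.23, 0.88 ± 0.34, 1.65 ± 0.27 and 2.64 ± 0.53, and all 5 were still called. *Notum* then turned to −0.73 ± 0.23 and was called lower than in WT (adjusted p = 0.017). *Nkd1* turned to −1.01 ± 0.53 and *Tcf7* went to 0.23 ± 0.44, and neither was called. In RNA *Axin2* went from 2.55 ± 0.63 with mouse 1 to 1.57 ± 0.37 without it, *Lgr5* from 1.90 ± 0.49 to 1.05 ± 0.23 and *Tcf7* from 1.42 ± 0.40 to 0.91 ± 0.33. *Rnf43*, which was called in neither of these fits, went from 1.26 ± 0.65 to −0.07 ± 0.33. With mouse 1 kept, *Rnf43* RNA was called higher by DESeq2 (adjusted p = 0.087) and without the filter on low counts (adjusted p = 0.089). It was also called with the replicate number as a block (adjusted p = 0.054) and with all 24 mice in 1 fit (adjusted p = 0.041). *Nkd1* RNA was called higher with that block (adjusted p = 0.039), without the filter (adjusted p = 0.099) and with all 24 mice (adjusted p = 0.053). *Znrf3*, which encodes the Frizzled-removing ligase, moved least among the 4 target genes called in RNA, from 1.85 ± 0.20 to 1.71 ± 0.17. *Tcf7* had 2.84, 0.776 and 1.07 RPF CPM in the 3 BM mice. The T-cell marker sums beside it were 3.37, 8 and 6.03 CPM in RPFs, in which *Cd3e* alone gave 27, 72 and 55 counts, and 2.78, 2.06 and 3.12 CPM in RNA. The hepatocyte marker sums were 33046, 32356 and 37780.1 CPM in RPFs and 28876, 30952 and 31169.5 CPM in RNA, where mouse 1 was the lowest. The part of either in these results was not tested.

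On the TMM-scaled levels, *Ctnnb1* was the gene that fell. In BM at day 10 its RPF level was 303, 270.0 and 284 CPM, against 375, 378 and 347 in WT and 369, 380.4 and 373 in B, and its RNA level was 192, 176 and 169 CPM, against 269, 246 and 259 and 244, 261 and 248. Each BM mouse was below each WT and B mouse in both measures. Against WT, *Ctnnb1* RPFs fell by 0.37 ± 0.14 (adjusted p = 0.075) and RNA fell by 0.53 ± 0.12 (adjusted p = 0.0097) on the log2 scale. The fall was as large without mouse 1, at 0.41 ± 0.12 in RPFs and 0.59 ± 0.11 in RNA. The RPF call was close to the threshold. Over 12 alternatives its adjusted p ran from 0.00092 to 0.23, and it was lost without any 1 of the WT mice or without BM mouse 2 or 3, at changes of −0.42 to −0.34. It was lost as well without the filter on low counts (adjusted p = 0.11) and with the replicate number as a block (adjusted p = 0.15). The RNA call held in all 12. In B at day 10 the change was 0.01 ± 0.10 in RPFs and −0.04 ± 0.13 in RNA, and neither was called.

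In M, which carries the MYC transgene without mutant β-catenin, no target gene was called higher in RPFs with all mice, and *Rnf43* was called higher at day 10 without M mouse 3 (1.05, adjusted p = 0.053). At day 4, 2 of 7 genes tested were lower, against 14.7% of all genes: *Notum* fell by 0.64 ± 0.12 (adjusted p = 0.0042) and *Lgr5* fell by 0.46 ± 0.12 (adjusted p = 0.022) on the log2 scale. The M mice had 17.2, 19.8 and 15.4 RPF CPM of *Notum* and 11.1, 14.6 and 12.0 of *Lgr5*, below all WT mice of that day. *Axin2* was also below WT in each M mouse, at 1.76, 2.76 and 1.54 RPF CPM, with a change of −0.63 ± 0.27 that was not called (adjusted p = 0.12). It was called lower without M mouse 2 (−0.93, adjusted p = 0.030) and with RLE normalization (−0.65, adjusted p = 0.0996). *Nkd1* at 1.23, 1.38 and 1.45 RPF CPM and *Znrf3* at 3.16, 3.60 and 3.54 lay above all WT mice, with changes of 0.68 ± 0.29 and 0.52 ± 0.22 that were likewise not called (adjusted p = 0.14 and 0.11). At day 10, 1 of 7 genes was lower, against 8.80% of all genes. This was again *Notum*, at 17.6, 16.6 and 12.8 CPM, which fell by 0.85 ± 0.17 (adjusted p = 0.019). The hepatocyte marker sums of the M mice, lower than in WT at both days as given above, moved with these calls, and their part in them was not tested. *Sp5* and *Tcf7* had too few RPFs in WT and M for the test. With all 24 mice in 1 fit none of these 3 calls held, at changes of −0.67 for *Notum* and −0.49 for *Lgr5* at day 4 and −0.84 for *Notum* at day 10 (adjusted p = 0.27, 0.38 and 0.16), which are close to those above with larger standard errors.

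In the RNA of M mice edgeR's quasi-likelihood test called 0 of 8 genes at day 4. The unadjusted p was under 0.05 for 4 of them, and DESeq2 called 0, against 23.7% of all genes called in either direction. *Notum* RNA was 8.74, 9.38 and 4.22 CPM in M (log2 change −0.51 ± 0.25, adjusted p = 0.19) and *Lgr5* RNA was 4.94, 5.36 and 5.33 CPM (−0.54 ± 0.22, adjusted p = 0.11). Without 1 M mouse, *Tcf7* (−1.15 without mouse 1, adjusted p = 0.092) and *Nkd1* (−1.02 without mouse 2, adjusted p = 0.098) were called lower. At day 10 *Rnf43* was called higher, 1 of 8 genes against 8.53% of all genes. Its RNA level was 13.3, 12.2 and 8.31 CPM in M and 8.28, 4.30 and 4.91 in WT, so that the lowest M mouse was level with the highest WT mouse (log2 change 0.94 ± 0.28, adjusted p = 0.057). This call was lost with all 24 mice in 1 fit (adjusted p = 0.28), with RNA of the RPF transcript alone (0.59, adjusted p = 0.37) and without WT mouse 2 or 3 or M mouse 1 or 2, at changes of 0.75 to 0.87. *Notum* RNA at day 10 was 7.65 ± 0.0873 CPM (SD, n = 3) in M and 11.5 ± 2.41 in WT, each M mouse below each WT mouse, with a change of −0.57 ± 0.20 that was not called (adjusted p = 0.11). It was called lower with RNA of the RPF transcript alone (−0.73, adjusted p = 0.091) and without WT mouse 2 (−0.71, adjusted p = 0.073).

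BM was then compared with B, which asks what the MYC transgene adds to mutant β-catenin. At day 4, 44.7% of all genes differed in RPFs, but edgeR's quasi-likelihood test called 0 of these 9 genes, with 0 at an unadjusted p under 0.05 and 0 by DESeq2. *Axin2* was called higher in BM with the replicate number as a block (adjusted p = 0.097), without B mouse 2 (0.45, adjusted p = 0.027) and without BM mouse 3 (0.38, adjusted p = 0.097), and *Znrf3* without B mouse 3 (0.46, adjusted p = 0.087). With all mice the differences ran from −0.12 ± 0.15 for *Notum* to 0.39 ± 0.41 for *Tcf7*, with 0.29 ± 0.14 for *Axin2*. In RNA 34.8% of all genes differed and *Axin2* was the 1 of 9 genes called, higher in BM by 0.56 ± 0.23 (adjusted p = 0.096), with B and BM mice that overlapped. That call was lost without B mouse 1 or 3 or BM mouse 1 or 2, at differences of 0.39 to 0.55.

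At day 10, 36.5% of all genes differed between BM and B in RPFs and 31.8% in RNA. *Ctnnb1* was lower in BM in both, by 0.38 (SE 0.14, adjusted p = 0.083) in RPFs and 0.47 (SE 0.15, adjusted p = 0.043) in RNA. The RPF call was lost without any 1 of the B mice or without BM mouse 2 or 3, without the filter on low counts (adjusted p = 0.13) and with the replicate number as a block (adjusted p = 0.17), and the RNA call without B mouse 2, BM mouse 2 or BM mouse 3. *Znrf3* was higher in BM in RNA by 0.75 ± 0.18 (adjusted p = 0.018), with 78.1, 64.0 and 57.4 CPM in BM and 35.8, 36.7 and 47.1 in B. By this fit no other gene of the 9 was called with all mice. With all 24 mice in 1 fit, *Notum* was called lower (−0.80, adjusted p = 0.073) and *Znrf3* higher (0.70, adjusted p = 0.028) in RPFs, and with the replicate number as a block *Notum* was called lower (−1.17, adjusted p = 0.090). Leaving out BM mouse 1 changed this, among all genes as well as among these. Then 6 genes were called lower in BM in RPFs and 7 in RNA, with *Znrf3* still higher in RNA. The share of all genes called in either direction was then 61.0% and 46.3%, against 36.5% and 31.8% with all mice. The share called lower is not given here. Without that mouse *Axin2* RPFs were lower than in B by 1.35 ± 0.25, *Lgr5* by 0.73 ± 0.19, *Notum* by 1.82 ± 0.23, *Nkd1* by 2.68 ± 0.75 and *Tcf7* by 1.3 ± 0.38. Mice 2 and 3 thus held less RPF of these 5 genes than each B mouse, while mouse 1 lay within or above the range of the B mice.

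The calls of a change of the BM effect with time depended on the same mouse. With all mice *Ctnnb1* was the 1 of 9 genes called, in RPFs at −0.34 ± 0.14 (adjusted p = 0.087) and in RNA at −0.36 ± 0.14 (adjusted p = 0.079), day 10 minus day 4, against 35.7% and 29.9% of all genes. Over 17 alternatives these calls held in 5 for RPFs and 6 for RNA, and leaving out 1 library other than BM mouse 1 mostly ended them, at changes of −0.39 to −0.32. In RPFs *Nkd1* at −1.83 ± 1.12, *Tcf7* at −1.11 ± 0.85 and *Notum* at −1.05 ± 0.64 were not called. With the replicate number as a block, *Nkd1* RPFs were called lower (−2.19, adjusted p = 0.0996) and *Ctnnb1* RPFs were not called (adjusted p = 0.12). Without BM mouse 1, 7 of 9 genes were called lower in both RPFs and RNA. The share of all genes called in either direction was then 57.3% and 43.5%, also above the 35.7% and 29.9% with all mice. In RPFs *Nkd1* was then at −3.94 ± 0.60, *Notum* at −2.13 ± 0.27, *Lgr5* at −1.31 ± 0.27 and *Axin2* at −1.07 ± 0.33. *Znrf3* at −0.43 ± 0.33 and *Sp5* at −0.09 ± 1.20 were not called.

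TE asks whether ribosome occupancy moved beyond the RNA. With edgeR's quasi-likelihood test on the interaction of genotype and library type, 0 of the genes tested were called in any of the 8 TE comparisons, and DESeq2 called 0 as well. Among all genes, the share called was 0.0488% in B, 0.971% in M and 2.23% in BM against WT at day 4, and 0.0564%, 0% and 0.259% at day 10. It was 1.12% for BM against B at day 4 and 0.169% at day 10. The 0% of M at day 10 stands for 0 of 10453 genes, of which 334 had an unadjusted p under 0.05, and DESeq2 called 3. For *Axin2* the TE change was 0.08 ± 0.43 in B and −0.19 ± 0.32 in BM at day 4, for *Lgr5* 0.00 ± 0.74 and −0.10 ± 0.21, and for *Notum* 0.02 ± 0.28 and −0.09 ± 0.22. The RPF and RNA changes of these 3 genes thus differed by less than 1 standard error. The 0.74 of *Lgr5* was derived from a change near 0, where such a standard error is unstable. *Ctnnb1* had log2 ratios of RPF to RNA of 0.45 to 0.55 in WT and 0.60 to 0.66 in BM at day 4, which do not overlap, with a TE change of 0.14 ± 0.10 that was not called (adjusted p = 0.76).

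*Nkd1*, the Dishevelled antagonist, was the exception at an unadjusted p under 0.05, which it passed in all 3 comparisons with WT at day 4 and no other gene of the set passed in any TE comparison. The log2 ratio of RPF to RNA CPM was −2.44, −1.99 and −2.04 in WT, −1.14, −0.73 and −1.33 in B, −0.50, −1.18 and −0.64 in M and −0.60, −0.81 and −1.21 in BM. The 3 WT mice lay below the 9 mutant mice of day 4. These ratios rest on low counts, with 10, 7 and 7 RPF counts in the WT mice and 14, 18 and 16 in the M mice. The TE change was 1.14 ± 0.41 in B, 1.41 ± 0.42 in M and 1.38 ± 0.40 in BM, with adjusted p of 1, 0.24 and 0.13 over all genes. Both libraries of a mouse come from 1 lysate, and with the mouse as a block the BM change was 1.39 ± 0.37 and was called (adjusted p = 0.028). It was called also with RNA of the RPF transcript alone, at 1.92 ± 0.52 (adjusted p = 0.093). Over all 13 alternatives its adjusted p ran from 0.028 to 1 and it was called in these 2. The 3 comparisons share their WT mice. At day 10 the ratio was −1.57, −1.80 and −0.87 in WT and −1.33, −1.19 and −1.44 in B, which overlap. In BM it was −1.54, −2.32 and −2.73, with mice 2 and 3 below each WT mouse, and the TE change was −0.29 ± 1.34, or −1.04 ± 0.72 without BM mouse 1, and not called in either case.

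**Figure D4:**
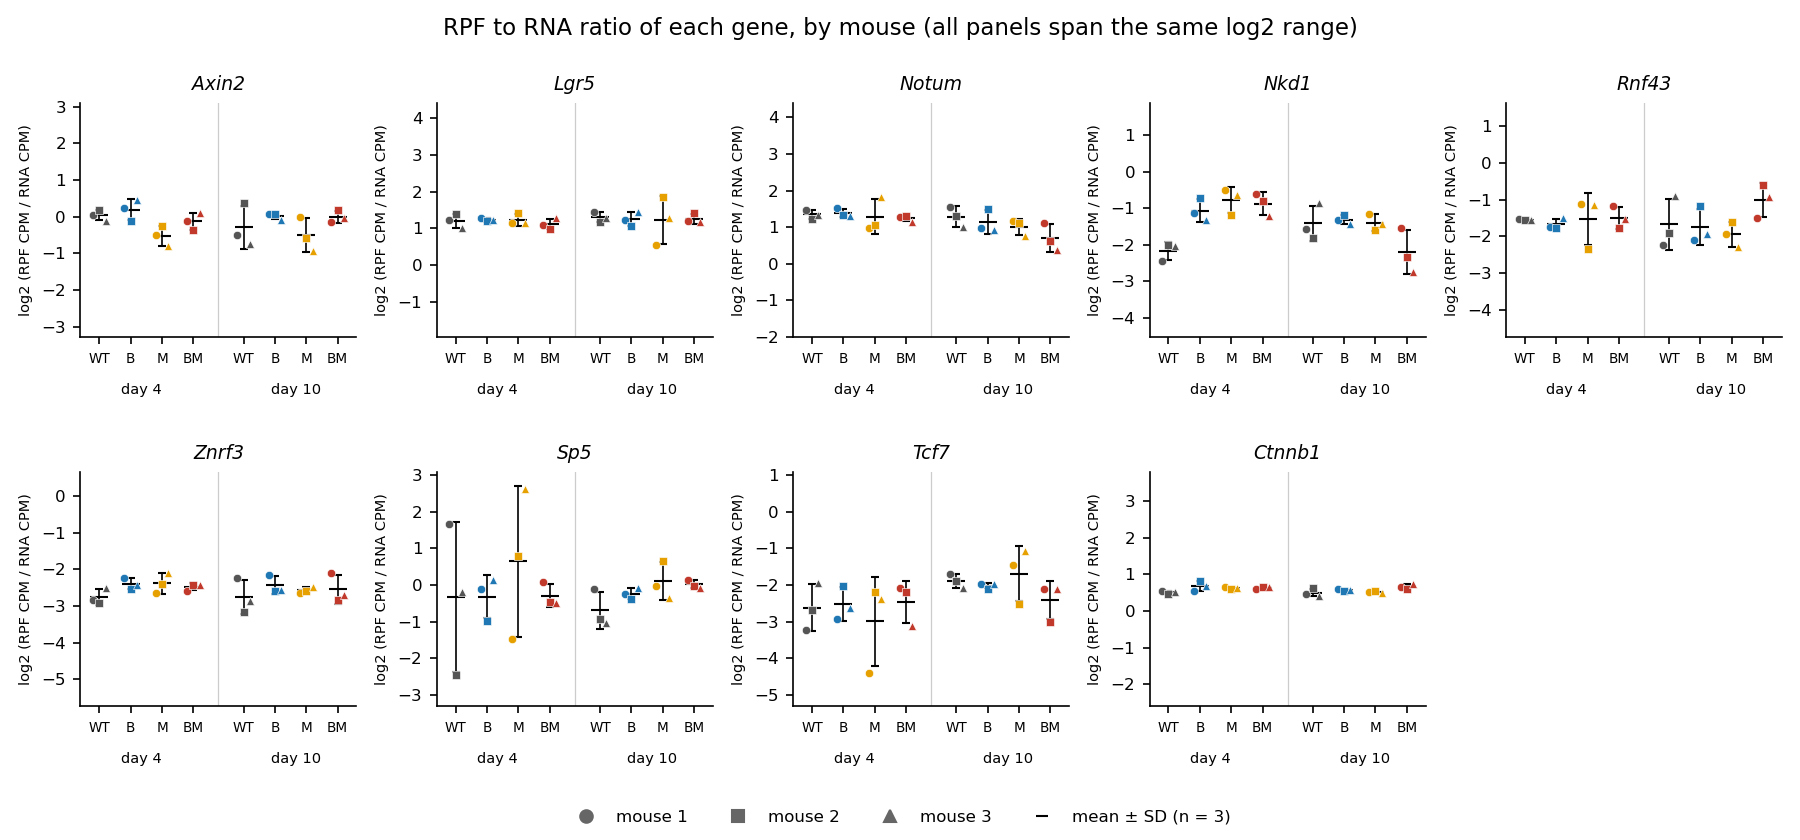
Log2 ratio of RPF CPM to RNA CPM (y axes, the same span in each panel) of each mouse by genotype and day for 9 genes, without *Lef1*; points are mice and bars the mean and SD of 3 mice. For *Nkd1* the WT mice of day 4, at −2.44 to −1.99, lie below the mutant mice of that day, while *Axin2* in WT, at −0.11 to 0.17, overlaps with B and BM.

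The 10 genes covered a wide span of levels. Per kilobase of counted coding sequence, mean RPF levels in WT at day 4 were 171 ± 5.47 CPM per kb (SD, n = 3) for *Ctnnb1*, 19.6 ± 1.78 for *Notum*, 6.71 ± 0.0936 for *Lgr5* and 1.34 ± 0.146 for *Axin2*. *Rnf43*, *Znrf3*, *Nkd1*, *Tcf7* and *Sp5* followed between 1.02 and 0.509 CPM per kb, with neighbours that overlapped from *Axin2* down, and *Lef1* was at 0. In B the order of the top 4 was kept, at 168 ± 14.6, 56.3 ± 10.8, 30.1 ± 6.98 and 9.18 ± 1.85 CPM per kb, and *Axin2* then stood apart from the next gene, *Nkd1*, at 5.65 ± 1.32. In RNA, on the TPM scale, which also divides by length, *Ctnnb1* was first in WT at 95.3 ± 6.13 TPM and *Notum* next at 6.06 ± 1.10, but *Lgr5* had 1.81 ± 0.348 TPM and stood below *Znrf3* at 4.52 ± 0.397.

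Over the 24 mice, the genes whose log2 RPF level followed *Axin2* most closely, among 10967 genes, were *Glul* (Pearson's r = 0.982), *Lgr5* (0.974), *Gulo* (0.964), *Slc1a4* (0.954) and *Lect2* (0.940). *Lgr5* was followed by *Axin2* (0.974), *Glul* (0.968), *Gulo* (0.956), *Gstm2* (0.942) and *Lect2* (0.941). *Glul*, glutamine synthetase, is the best-known gene of hepatocytes at the central vein. *Notum* had another list, *Gba2* (0.953), *Slc1a4* (0.95), *Pon1* (0.936), *D630003M21Rik* (0.913) and *Rmdn2* (0.911). These correlations are descriptions: the mice fall into genotypes, and all values of a mouse come from 1 library.

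The other genes of the pathway, 134 genes in 9 lists, moved less evenly. In B at day 4, 19 of 87 tested were higher in RPFs and 9 lower, against 6.21% and 6.26% of all genes, and in BM 21 of 90 were higher and 29 lower, against 26.2% and 24.7%. At day 10 the counts were 22 higher and 22 lower of 89 in B, against 13.1% and 12.1%, and 23 and 22 of 90 in BM, against 24.5% and 22.3%. Without BM mouse 1 they were 28 and 37 of 91 in BM, against 33.4% and 32.9%. Of the 14 perivenous hepatocyte genes, 13 were higher in B at day 4 and 12 in BM, and 12 and 10 at day 10, with none lower and median changes of 1.12, 1.09, 1.88 and 1.40, against −0.01, 0.00, 0.01 and 0.03 over all genes. Without BM mouse 1, 9 were higher and 2 lower in BM at day 10, with a median of 1.06. The list holds genes known as β-catenin targets in liver. *Glul* went from 845 ± 18.8 RPF CPM (SD, n = 3) in WT to 3901 ± 798 in B and 4002 ± 315 in BM at day 4. *Rhbg*, an ammonium transporter, rose by 1.64 ± 0.23 in B and 2.54 ± 0.16 in BM at day 4 and by 3.99 ± 0.32 and 4.44 ± 0.40 at day 10, and *Slc1a2*, a glutamate transporter, by 1.20 ± 0.23, 1.84 ± 0.11, 3.78 ± 0.23 and 4.00 ± 0.26.

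**Figure D5:**
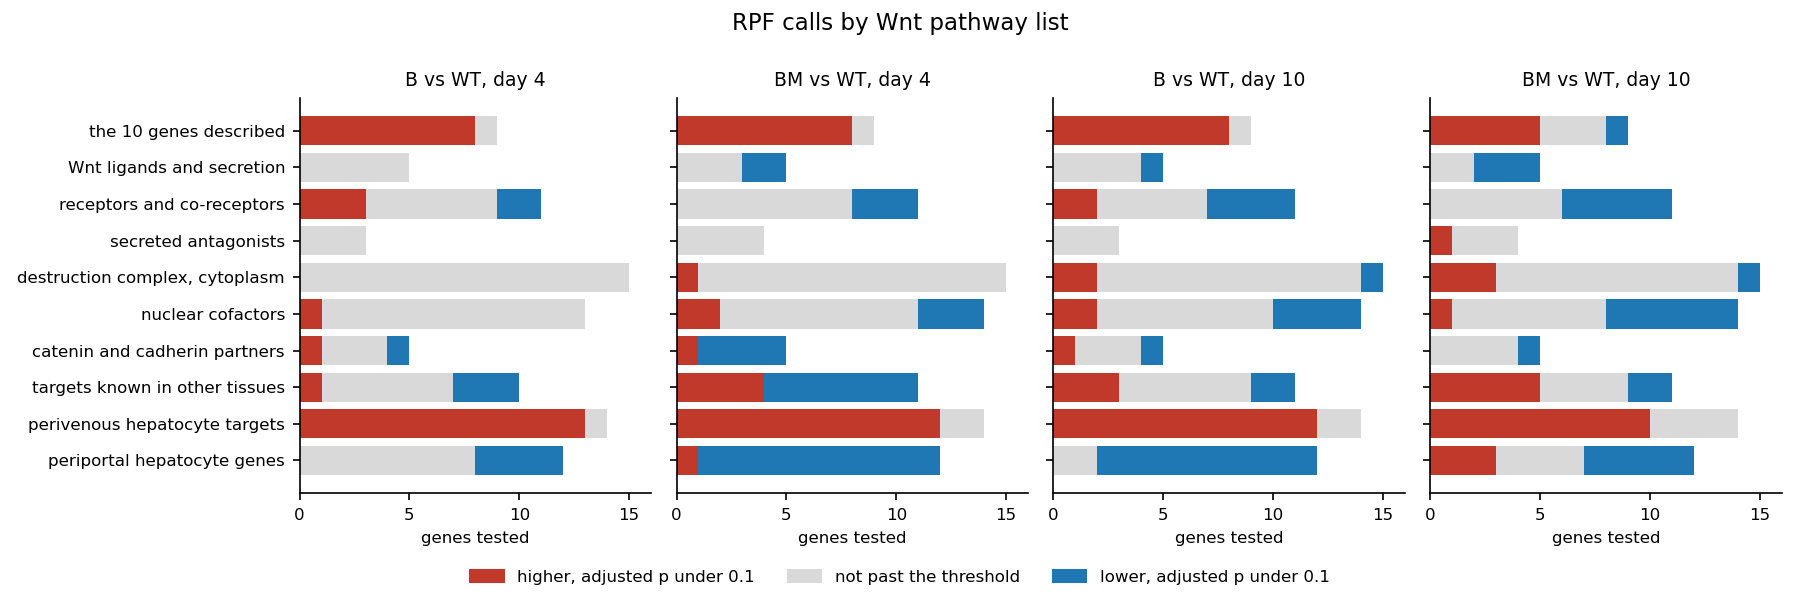
Number of genes (x axis) called higher, called lower or not called in RPFs for the 10 genes and each pathway list (y axis), in 4 panels for B and BM against WT at days 4 and 10. Perivenous genes are called higher in each panel, 13 of 14 in B at day 4, and periportal genes are called lower, 11 of 12 in BM at day 4.

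Periportal genes are expressed at the opposite end of the lobule. In BM at day 4, 11 of 12 were lower and 1 higher, against 24.7% and 26.2% of all genes, with a median of −1.39. In B at day 10, 10 were lower and 0 higher, against 12.1% and 13.1%, with a median of −1.52. *Pck1*, the gluconeogenic enzyme, fell by 4.16 ± 0.36 in BM at day 4. In BM at day 10 it was at 2706 ± 1792 CPM, against 1196 ± 63.6 in WT, and its change of 1.17 ± 0.56 was not called (adjusted p = 0.13). *Hal*, histidine ammonia-lyase, fell by 2.93 ± 0.13 in BM at day 4 and by 5.42 ± 0.38 in B at day 10, where *Cyp2f2* fell by 4.93 ± 0.41. In BM at day 10, 5 were lower and 3 higher, against 22.3% and 24.5%, and without BM mouse 1, 6 were lower and 6 higher, against 32.9% and 33.4%.

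Upstream of β-catenin, of 11 receptor genes tested, 3 were higher and 2 lower in B at day 4, against 6.21% and 6.26% of all genes, and 0 were higher and 3 lower in BM, against 26.2% and 24.7%. In BM at day 10, 0 were higher and 5 lower, against 24.5% and 22.3%, and without BM mouse 1, 1 was higher and 8 were lower, against 33.4% and 32.9%. *Lgr4*, the broadly expressed R-spondin receptor, fell by 0.62 ± 0.10 in B and 0.77 ± 0.10 in BM at day 4, the direction opposite to *Lgr5*. *Lrp6*, the Wnt co-receptor, fell by 0.37 ± 0.08 and 0.45 ± 0.09, and *Fzd5* fell by 0.87 ± 0.27 in BM. Of 23 ligand and secretion genes only 5 were tested, and 2 were lower in BM at day 4, against 24.7% of all genes. These were *Wnt2*, at 2.35 ± 0.288 RPF CPM in WT and 1.16 ± 0.391 in BM, and *Porcn*, the enzyme that adds the lipid to Wnt ligands, at 1.37 ± 0.366 and 0.558 ± 0.0599. *Wnt2* is made by sinusoidal endothelial cells, and all 8 endothelial markers were detected, with summed RPF levels of 786 to 881 CPM in WT and 604 to 684 in BM at day 4. The part of that difference in the fall of *Wnt2* was not tested. Of the 14 secreted antagonists other than *Notum*, 4 were tested in BM at day 10 and 1 was called higher and 0 lower, against 24.5% and 22.3%, and without BM mouse 1, 1 was called higher and 1 lower, against 33.4% and 32.9%.

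Of 15 genes of the destruction complex and cytoplasm tested in BM at day 4, 1 was called, against 26.2% of all genes higher and 24.7% lower. This was *Tnks2*, a tankyrase that marks AXIN for degradation, which was higher (0.22 ± 0.09). At day 10 in BM, 3 were higher and 1 lower, against 24.5% and 22.3% of all genes. Without BM mouse 1, 3 were higher and 5 lower, against 33.4% and 32.9%. Among 14 nuclear cofactors 2 were higher and 3 lower in BM at day 4, no larger a share than the 26.2% and 24.7% of all genes: *Cby1*, which encodes a β-catenin antagonist, rose by 0.89 ± 0.18, while *Tle2*, a co-repressor, fell by 0.68 ± 0.24 and *Tcf7l2*, the main TCF factor of the liver, fell by 0.68 ± 0.15. Of the cofactors, 1 was higher and 6 lower in BM at day 10, against 24.5% and 22.3% of all genes. Without BM mouse 1, 1 was higher and 7 lower, against 33.4% and 32.9%. *Tcf7l2* in B at day 4 was at 0.02 ± 0.14 and was not called. The partners of β-catenin at cell junctions were 1 higher and 4 lower of 5 in BM at day 4, against 26.2% and 24.7% of all genes. At day 10, 0 were higher and 1 lower, against 24.5% and 22.3%. Without BM mouse 1, 0 were higher and 3 lower, against 33.4% and 32.9%. *Cdh1*, E-cadherin, fell by 0.35 ± 0.10 in B and 0.90 ± 0.09 in BM, and *Cdh2*, N-cadherin, rose by 0.66 ± 0.09 and 0.82 ± 0.09. *Ctnna1*, α-catenin, fell by 0.50 ± 0.07 in BM.

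Of the genes known as Wnt targets in other tissues, 4 were higher and 7 lower of 11 in BM at day 4, against 26.2% and 24.7% of all genes, and 1 was higher and 3 lower of 10 in B, against 6.21% and 6.26%. At day 10, 5 of 11 were higher and 2 lower in BM, against 24.5% and 22.3% of all genes. Without BM mouse 1, 7 of 12 were higher and 3 lower, against 33.4% and 32.9%. *Tnfrsf19* rose as the liver targets did, from 1.62 ± 0.540 RPF CPM in WT to 12.5 ± 3.18 in B and 14.2 ± 1.08 in BM, but it was also higher in M, by 1.07 ± 0.28 on the log2 scale. *Birc5*, a gene of dividing cells, rose by 6.20 ± 0.32 in BM and 3.72 ± 0.32 in M at day 4, from a WT level of 0.460 ± 0.218 CPM, close to the floor. The RNA of *Myc* differed from WT by 0.16 ± 0.12 in M and −0.22 ± 0.15 in BM at day 4, neither of which was called. RNA and RPFs were aligned with different tools, and how far each takes up transgene reads was not tested. *Myc* RPFs rose by 2.41 ± 0.40 in M and 2.22 ± 0.39 in BM at day 4, where reads of the transgene cannot be told apart from those of the mouse gene, and were at 0.94 ± 0.50 in B (adjusted p = 0.32).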

How the data were processed

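RPFs and cytoplasmic RNA of 24 livers (48 libraries) were analysed, with genotype, day and mouse number taken from the sample labels. The genes and all gene lists were chosen with earlier results of these data known. The authors deposited RPF counts as whole-number counts over the coding sequence of 1 transcript per gene, the most abundant one, without its first 20 and last 10 codons. For RNA the authors deposited RSEM expected counts and TPM per transcript. Per the study's methods and the submitters' processing notes, reads were trimmed with cutadapt 1.18 and deduplicated by molecular identifiers, RPFs were aligned with BBmap and RNA with Bowtie2 2.3.5.1, and RSEM 1.3.3, SAMtools 1.9 and R 4.3.1 were used with GENCODE vM27 transcripts (GRCm39). Deduplicated counts approximate molecules, and intervals and floors cover counting error only. The deposited FPKM and isoform percentages were not used.

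Expected counts were summed per gene and rounded (at least 99.92% were whole). Transcripts absent from an RPF table (1689 to 3019 of 16269 a library) were taken as 0. Genes passing edgeR's filter (minimum count 10, minimum total 15) were tested in R 4.3.3 with edgeR 4.0.16 and limma 3.58.1 (TMM, quasi-likelihood F test, Benjamini-Hochberg over all genes tested, threshold 0.1), using the libraries of the groups compared. TE was the interaction of genotype and library type. Standard errors of edgeR changes were derived as the absolute log2 change over the square root of its F statistic. They are unstable for changes near 0. Log2 levels used a prior count of 0.5. The scripts were tested on simulated data. Alternatives were RLE scaling, no filter, DESeq2 1.42.0, a replicate block, all 24 mice in 1 fit, genes absent from a table left out, RNA of the RPF transcript alone, and each mouse left out. Pathway genes were named by rule: from each list at most 3 genes with the largest RPF change among those called in BM at day 4, plus *Glul* and *Myc*, and for *Axin2*, *Lgr5* and *Notum* the 5 genes of highest Pearson's r.

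Numbers pair RPF and RNA of a mouse by design, and deviations from the group means of both libraries of a mouse correlated at r = 0.136 to 0.589 (median 0.357). Each pair of RPF and RNA samples comes from a separate mouse. The sources used here give no library batches. Gene coordinates are GENCODE's on GRCm39, where *Axin2* spans chr11:108811169-108841609 (plus strand), *Lgr5* chr10:115286216-115423685 (minus), *Notum* chr11:120541446-120552019 (minus) and *Ctnnb1* chr9:120757422-120789579 (plus).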

Additional observations from a re-analysis of the deposited data

Results flagged for a closer look

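*Ctnnb1* was flagged because its change in BM against WT differed between the days by a test of that difference, day 10 minus day 4. The difference was −0.34 on the log2 scale in RPFs and −0.36 in RNA, where each group had 3 mice. At day 10 each BM mouse had less *Ctnnb1* than each WT mouse in both measures by TMM-scaled CPM, but not in RNA on the TPM scale.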

How the results depend on the processing

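Numbers of genes called out of the 10 are compared here, without the share of all genes called under each setting. They do not tell a move of these genes from a move of all genes. With all 24 mice in 1 fit the count was 0 in M RPFs at day 4, 0 in M RPFs and 0 in M RNA at day 10, 9 in BM RNA at day 10, 0 in RNA of BM against B at day 4 and 3 in RPFs of BM against B at day 10. Without the filter on low counts it was 8 in BM RNA at day 10, 2 in RNA of BM against B at day 4, 0 in RPFs of BM against B at day 10, and 0 in RPFs and 0 in RNA for the change of the BM effect between days. With RNA of the RPF transcript alone it was 1 for TE of BM at day 4. With the replicate block it was 1 for TE of BM at day 4 and 1 for RPFs of BM against B at day 4, and no other count moved by over 1.5 times. Across genotypes the numbers are only numbers: same-numbered mice of different groups correlated at −0.211 to 0.224 in RPFs and −0.168 to 0.18 in RNA.

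Leaving out each mouse in turn, again without shares of all genes, gave 7 to 8 genes in B RPFs at day 4, 2 to 3 in M RPFs and 0 to 1 in M RNA. At day 10 it gave 6 to 8 in B RPFs, 7 to 8 in B RNA, 1 to 2 in M RPFs, 0 to 1 in M RNA, 4 to 7 in BM RPFs and 5 to 9 in BM RNA. BM against B gave 0 to 1 in RPFs and 0 to 2 in RNA at day 4, and 0 to 6 and 1 to 8 at day 10. The change between days gave 0 to 1 for B RPFs and 0 to 7 for BM in RPFs and in RNA, where 7 was reached without BM mouse 1. B RNA and both BM counts at day 4 were 8 throughout and TE was 0. Among changes called with all mice or without 1, the direction turned for 4 when 1 mouse was left out. Changes called in neither fit also changed sign, such as *Nkd1* RPFs of BM against WT at day 10, from 1.05 to −1.01 without BM mouse 1. *Notum* RPFs of BM against WT at day 10 ran from −0.73 without BM mouse 1 to 0.71, *Lgr5* and *Rnf43* RNA of BM against B at day 10 from −0.81 and −1.32 without BM mouse 1 to 0.34 and 0.38, and *Sp5* RNA of BM against B at day 4 from −0.42 to 0.93 without B mouse 2. Apart from fits with fewer mice or other genes tested, the cause was not tested. Depth limits *Lef1*, *Sp5* and *Tcf7* most.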
